A study of Homo sapiens with 6 samples.

Results

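The tubulin tyrosine ligase-like family was followed through 6 RNA libraries of K562, an established cell line from human chronic myelogenous leukemia. Its 8 members here are TTL, TTLL1, TTLL3, TTLL4, TTLL5, TTLL7, TTLL11 and TTLL12, found by name among the 62828 loci of the deposited table. The family was selected on the measured level of TTLL7, which was about 10-fold higher in the knockdown nuclear library only. The values of TTLL7 are therefore given as a description, with no test. Cells were transfected either with siRNA against HNRNPU at 300 nM or with control oligos. HNRNPU is a nuclear RNA-binding protein, and the series examines where long noncoding RNAs sit in cells that lack part of it. From each of the 2 conditions, RNA was taken from whole cells, nuclei and cytosol, which gives 6 groups of 1 library. Whether these came from a shared culture is not stated. No group has a replicate, and no test was run. A fit over the 3 preparations would take their disagreement as its error, and that disagreement is what TTLL7 was selected on. In such bulk RNA, fewer cells with a transcript and less of it per cell cannot be told apart.

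Microtubules carry marks on the tails of their alpha and beta tubulins, and these marks steer motors, severing enzymes and associated proteins. TTL puts back the tyrosine at the end of alpha tubulin after a carboxypeptidase has removed it. The TTLL enzymes share its ligase fold and attach other amino acids: glutamylases (TTLL1, TTLL4, TTLL5, TTLL7, TTLL11) build side chains of glutamate, and TTLL3 attaches glycine. TTLL7 acts mainly on beta tubulin and is best known from neurons, where it is a major source of polyglutamylated beta tubulin. TTLL12 is a divergent member for which ligation of tubulin has not been established.

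The values are FPKM, fragments per kilobase of transcript scaled to library size, so levels can be set side by side between genes. All 8 members averaged 1 FPKM or more, TTLL7 also without the knockdown nuclear library (1.81 FPKM). Of them 6 had a locus of their own. TTLL3 was merged with ARPC4 and the ARPC4-TTLL3 readthrough, and TTLL5 with FLVCR2 and IFT43, so those 2 values hold several genes and none can be assigned to the family member alone. The locus of the targeted gene, merged with the antisense HNRNPU-AS1, was lower in each knockdown library. It had 129 and 55.3 FPKM from whole cells, 163 and 63.7 FPKM from nuclei and 158 and 34.9 FPKM from cytosol. MALAT1, a nuclear RNA, had 1984 FPKM in nuclear and 141 in cytosolic control RNA. GAS5, which is mostly cytosolic, had 240 and 853 FPKM. All 9 K562 markers, among them the fetal globins and GATA1, were at 7.80 FPKM or more in each library.

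The promoter of TTLL7 is shown because this gene carries the main difference. RefSeq places the 250 bases before its start on the minus strand of GRCh38.p14 at chr1:83999133-83999382. Capitals mark the CG dinucleotides, which read the same on both strands.
TTLL7: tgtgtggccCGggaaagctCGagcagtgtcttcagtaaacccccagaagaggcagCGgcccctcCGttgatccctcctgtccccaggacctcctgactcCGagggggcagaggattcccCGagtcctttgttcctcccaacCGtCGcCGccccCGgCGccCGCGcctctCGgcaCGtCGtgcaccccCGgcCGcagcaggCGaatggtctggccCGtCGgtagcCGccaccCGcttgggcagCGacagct
It holds 24 CG dinucleotides, against a median of 11 over 35116 RefSeq windows of that length, 93.9% of which hold at least 1. RefSeq windows matched 7 of the 8 members. Those of TTLL1, TTLL5 and TTLL12 hold 21, 25 and 24, and that of TTL holds 43. TTLL3 has 3 starts with 4 to 30 and TTLL11 has 2 with 3 and 26. The CG count of TTLL7 thus lies within the range of its relatives.

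TTLL7 (chromosome 1, 84330710 to 84464833 on hg19) had 1.32 FPKM in whole-cell RNA of the control and 2.28 FPKM in that of the knockdown. In nuclear RNA it had 1.97 FPKM in the control and 21.7 FPKM after knockdown, and in cytosolic RNA 1.35 and 2.12 FPKM. The gene was low in 5 libraries, between 1.32 and 2.28 FPKM, and high in the knockdown nuclear library alone. There it was about 11 times its control nuclear level, 9.53 times its whole-cell level and 10.3 times its cytosolic level in the same condition. Its control nuclear level was 1.50 times the whole-cell and 1.47 times the cytosolic level.

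Differences between libraries are given as log2(FPKM + 0.1) of one minus that of the other, a scale that understates the change of low loci. On this scale the knockdown over control difference of TTLL7 was 0.75 in whole-cell RNA, 3.39 in nuclear RNA and 0.62 in cytosolic RNA. The direction was thus the same in all 3 preparations, while the size was not. In nuclear RNA 1 of the 10289 protein-coding loci that averaged 1 FPKM or more stood higher. In whole-cell RNA 158 did, and in cytosolic RNA 291. The central 95% of protein-coding loci ran from -0.56 to 0.63 in whole-cell and from -0.64 to 0.65 in cytosolic RNA. TTLL7 therefore lay just outside that range in whole-cell RNA and just inside it in cytosolic RNA.

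How many fragments stand behind these levels was estimated from the table. Low FPKM values were taken to come in steps of single fragments. From these, 1 FPKM over 1 kilobase was estimated to stand for about 19.6 fragments in the control and 39.1 in the knockdown nuclear library. The latter was the highest estimate of the 6. Counting that divides fragments between loci can give steps of less than 1 fragment. The counts would then be too high and the intervals below too narrow, which was not checked. At the mean TTLL7 transcript of 3944 bases, 21.7 FPKM stands for about 3162 fragments and the control nuclear level for about 144. The 95% counting interval of the nuclear difference was 3.15 to 3.63. Those of the whole-cell and cytosolic differences were 0.40 to 1.09 and 0.18 to 1.05. These intervals cover counting only, not the spread between cultures. They also depend on length: GENCODE lists 14 TTLL7 transcripts of 176 to 8452 bases. If all its fragments came from a transcript of 528 bases, the nuclear values would stand for about 11.9 and 261 fragments, with an interval of 2.56 to 4.23. The whole-cell and cytosolic intervals, -0.46 to 1.95 and -0.89 to 2.12, would then both hold 0. Values per transcript were not analysed here, so which part of the gene the nuclear fragments came from cannot be told from these data.

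Markers of other cell types were read in the same libraries, since TTLL7 is best known from neurons. Of 15 markers of 5 types, 3 were at 1 FPKM or more in every library (CD3D, LYZ and COL1A2). The summed level was highest in the knockdown nuclear library for 4 of the 5 types. The neuronal sum ran from 0.0131 to 0.369 FPKM, with SYT1 at 0.364 FPKM in that library and SNAP25 at 0 in all. MAP2, the third neuronal marker, went the other way in nuclear RNA, with 0.129 and 0.00478 FPKM. The sums of T cell, monocyte and fibroblast markers ran from 12.4 to 19.1, from 2.13 to 4.08 and from 5.10 to 18.8 FPKM. In control nuclear RNA they were 18.6, 3.56 and 14.8 FPKM. The T cell sum in control cytosolic RNA was 18.9 FPKM, close to the 19.1 FPKM of the knockdown nuclear library. Single markers of these types differed in direction. In nuclear RNA CD3D, CD3G, CD14, LYZ, COL1A2 and DCN were higher after knockdown, and CD3E, the FCGR3A locus and COL1A1 lower. B cell markers summed to 0.241 to 0.798 FPKM, with MS4A1 at 0 throughout. Their part in the TTLL7 value was not tested.

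**Figure D1:**
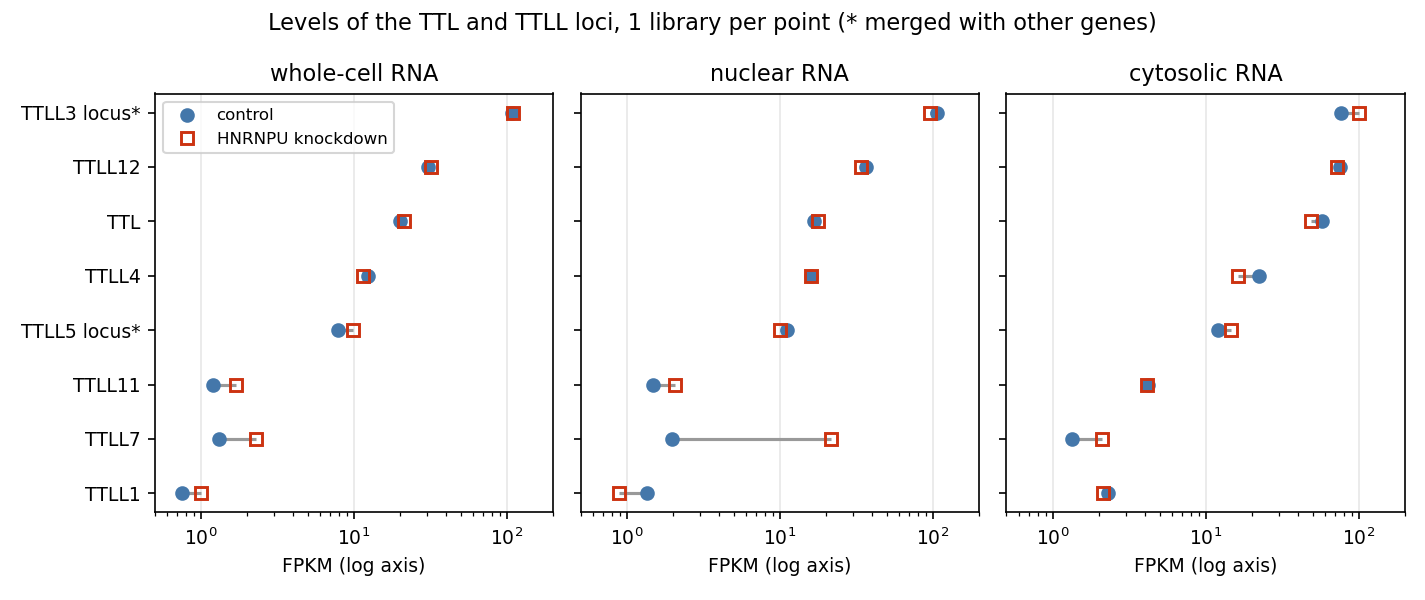
Level of each member in FPKM (log axis) in whole-cell, nuclear and cytosolic RNA; filled circles are control and open squares HNRNPU knockdown libraries, 1 library each. TTLL7 moves from 1.97 to 21.7 FPKM in nuclear RNA, and it alone is at least 2-fold apart between conditions.

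The members kept much the same order of levels. In control whole-cell RNA the merged TTLL3 locus was highest at 107 FPKM, followed by TTLL12 (30.7 FPKM), TTL (20.1 FPKM), TTLL4 (12.3 FPKM) and the merged TTLL5 locus (7.81 FPKM). TTLL7, TTLL11 and TTLL1 followed at 1.32, 1.20 and 0.750 FPKM. The counting interval of TTLL7 (1.10 to 1.58 FPKM) held the level of TTLL11, and that of TTLL1 (0.499 to 1.13 FPKM) overlapped both. Whether the last 3 differ beyond counting error was not tested, since overlap of intervals does not decide it. The intervals of the first 5 do not overlap. TTLL7 ranked 6 of 8 in both whole-cell libraries and in control nuclear RNA, and 8 of 8 in both cytosolic libraries. In knockdown nuclear RNA it ranked 3, above TTL at 17.6 FPKM, with counting intervals of 21.0 to 22.5 and 17.0 to 18.2 FPKM. These intervals assume mean transcripts of 3944 and 5059 bases. The rank restates the level on which the family was selected and adds no support to it.

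TTL (chromosome 2, 113239730 to 113299316), the tyrosine ligase itself, had 20.1 FPKM in the control and 21.2 FPKM in the knockdown from whole cells. In nuclear RNA it had 16.7 and 17.6 FPKM, and in cytosolic RNA 57.4 and 48.9 FPKM. Its cytosolic levels were the high ones in both conditions. The knockdown over control differences were 0.07, 0.07 and -0.23 in the same order, against medians of 0.07, 0.04 and 0.04 for protein-coding loci. TTL was one of the best covered members, with about 1585 fragments or more in each library. The cytosolic difference had a counting interval of -0.30 to -0.16 and is small beside the spread of protein-coding loci.

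TTLL4 (chromosome 2, 219575567 to 219620139) is a glutamylase that starts side chains, on tubulin and also on nucleosome assembly proteins. It had 12.3 and 11.5 FPKM in whole-cell and 16.1 and 16.0 FPKM in nuclear RNA. In cytosolic RNA it had 22.3 FPKM in the control and 16.3 FPKM after knockdown, a difference of -0.45 (counting interval -0.67 to -0.24). Of the members in a locus of their own, TTLL4 was the one with the lowest cytosolic difference. Still, 507 protein-coding loci had a lower one.

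TTLL1 and TTLL11 are glutamylases, and TTLL11 lengthens side chains that others have started. TTLL1 (chromosome 22, 43435521 to 43485434) is the catalytic part of a complex with TPGS1. It had 0.750 and 0.995 FPKM from whole cells, 1.35 and 0.892 FPKM from nuclei and 2.29 and 2.14 FPKM from cytosol. Its nuclear difference, -0.55, was the lowest of the family but rests on about 35.0 and 46.2 fragments, and its counting interval of -1.18 to 0.08 holds 0. TTLL11 (chromosome 9, 124584206 to 124855885) had 1.20 and 1.69 FPKM from whole cells, 1.50 and 2.08 FPKM from nuclei and 4.19 and 4.15 FPKM from cytosol. After TTLL7, it had the largest whole-cell and nuclear differences upward, 0.46 and 0.45, and the counting intervals of both hold 0.

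TTLL12 (chromosome 22, 43562627 to 43583139) lies on the same chromosome as TTLL1 and was the highest member with a locus of its own. It had 30.7 and 31.8 FPKM from whole cells, 36.5 and 33.9 FPKM from nuclei and 75.6 and 71.7 FPKM from cytosol. Its differences of 0.05, -0.11 and -0.08 were the most even of the family.

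The TTLL3 locus (chromosome 3, 9834178 to 9896822) had 107 and 109.7 FPKM from whole cells, 106 and 96 FPKM from nuclei and 76.3 and 100.4 FPKM from cytosol. ARPC4, a subunit of the Arp2/3 actin nucleator, shares this value. The TTLL5 locus (chromosome 14, 76044959 to 76550928) had 7.81 and 9.86 FPKM from whole cells, 11.1 and 10.1 FPKM from nuclei and 12.1 and 14.7 FPKM from cytosol. Both merged loci were slightly lower in nuclear (-0.14 each) and higher in cytosolic RNA (0.40 and 0.28) after knockdown.

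**Figure D2:**
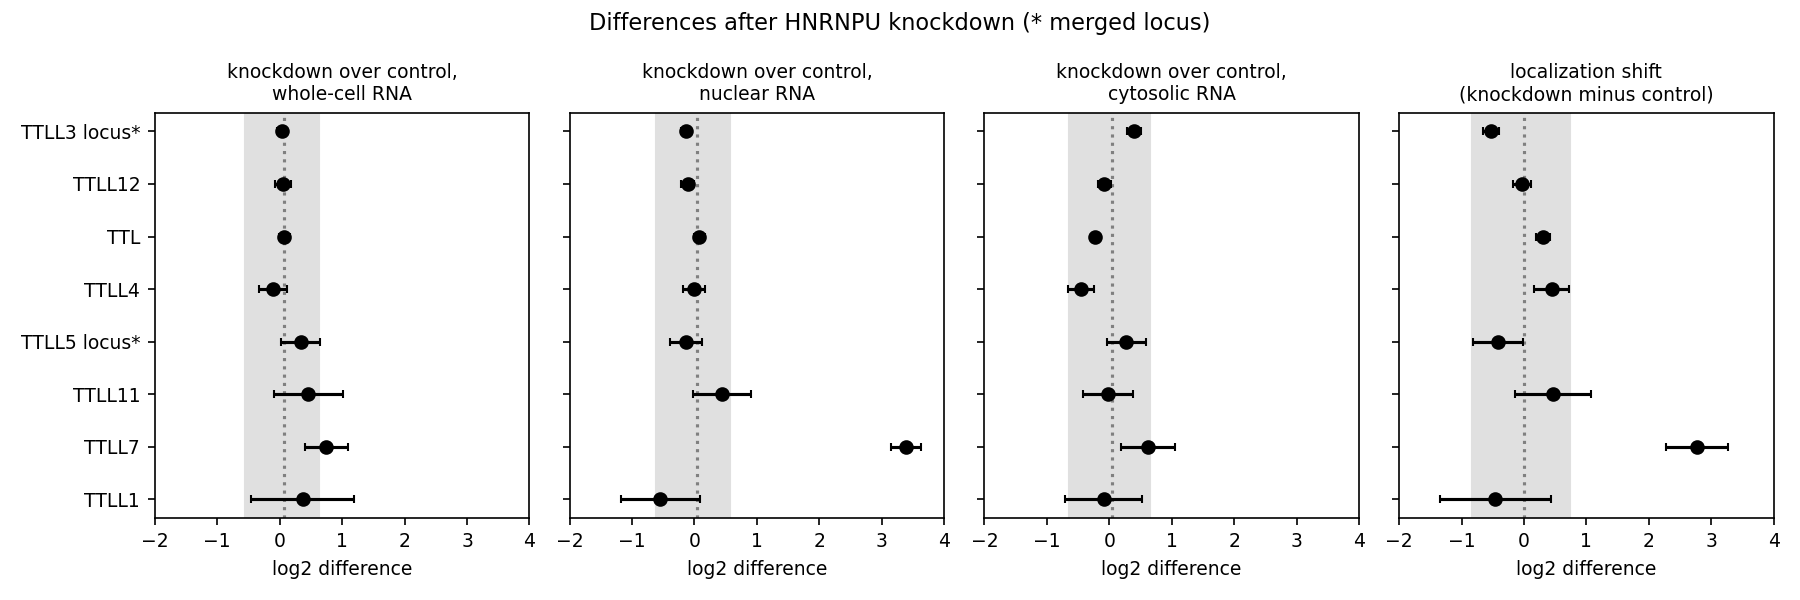
Log2 difference, knockdown over control, of each member in the 3 preparations, and the localization shift. Points are single differences between libraries, bars 95% counting intervals, the grey band the central 95% of 10289 protein-coding loci and the dotted line their median. TTLL7 lies at 3.39 in nuclear RNA, far outside the band, and the other 7 members lie inside it in each panel.

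By the rule of size, a difference of at least 2-fold, the family had 1 member higher and 0 lower in nuclear RNA, and 0 either way in whole-cell and cytosolic RNA. The 1 member is TTLL7, on which the family was chosen, so nothing is read from its count. Among protein-coding loci averaging 1 FPKM or more, 0.321% were at least 2-fold higher and 0.603% lower in nuclear RNA. In whole-cell RNA these shares were 0.603% and 0.467%, and in cytosolic RNA 0.593% and 0.768%. The other 7 members lay inside the central 95% of protein-coding loci in all 3 preparations.

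Where each RNA sat between nucleus and cytosol was read from the difference of nuclear and cytosolic levels, set beside the protein-coding median of -0.61 in both conditions. Such differences depend on how the libraries are scaled. With quantile normalization TTLL7 stood 0.20 above the median in the control, in place of 1.13. In the control TTLL7 was at 0.52 and the TTLL3 locus at 0.47, both above the median. TTL (-1.77), TTLL11 (-1.43) and TTLL12 (-1.05) were at least 2-fold lower in nuclear than in cytosolic RNA, as were 32.9% of protein-coding loci, and 0 members were at least 2-fold higher, beside 6.62%. TTLL1 (-0.72), TTLL4 (-0.47) and the TTLL5 locus (-0.13) lay between.

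After knockdown TTLL7 was at 3.30, and 22 of the 10289 protein-coding loci were higher. It was the 1 member at least 2-fold higher in nuclear RNA, as were 5.53% of protein-coding loci. TTL (-1.47), TTLL1 (-1.18) and TTLL12 (-1.08) were at least 2-fold lower, as were 32.0% of protein-coding loci. These counts move with the scaling. Scaled to the protein-coding median, 2 members were higher and 1 lower in the control (14.4% and 13.9% of protein-coding loci), and 1 higher and 0 lower after knockdown (12.9% and 12.7%). With totals made equal after leaving out small and mitochondrial RNAs, 3 were higher and 0 lower in both conditions, beside 34.8% and 2.27% of protein-coding loci in the control and 31.2% and 1.89% after knockdown. TTLL11 was at -0.96, the TTLL5 locus at -0.54, the TTLL3 locus at -0.06 and TTLL4 at -0.03.

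**Figure D3:**
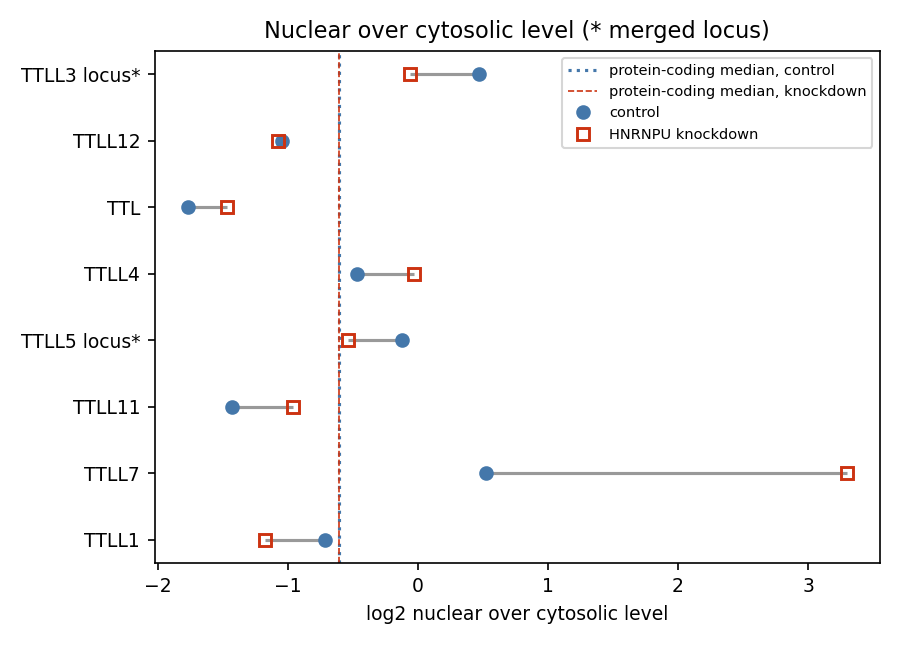
Log2 difference of nuclear and cytosolic level of each member in the control (filled circles) and after HNRNPU knockdown (open squares), 1 library per fraction. Vertical lines mark the protein-coding medians, which coincide near -0.61. TTLL7 moves from 0.52 to 3.30 and TTL stays at the cytosolic end.

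The localization shift is the nuclear-to-cytosolic difference after knockdown minus that in the control, so values above 0 are toward the nucleus. TTLL7 had a shift of 2.78 (counting interval 2.28 to 3.27), with 5 protein-coding loci higher. At least 2-fold to the nucleus were 1.14% of protein-coding loci and at least 2-fold to the cytosol 1.47%. The other 7 members shifted less than 2-fold: TTLL11 by 0.46, TTLL4 by 0.44, TTL by 0.30 and TTLL12 by -0.03. The merged TTLL5 and TTLL3 loci had shifts of -0.41 and -0.53, and TTLL1 had -0.46 with a counting interval of -1.35 to 0.43.

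Whole-cell RNA holds both fractions, so its level can be set against the one computed from them. Over protein-coding loci the whole-cell level was best matched by 0.541 times the nuclear plus 0.160 times the cytosolic FPKM in the control, and by 0.645 and 0.114 times after knockdown. For TTLL7 in the control this gives 1.28 FPKM, beside 1.32 FPKM measured. After knockdown it gives 14.2 FPKM, beside 2.28 FPKM measured, a log2 difference of -2.59. The central 95% of protein-coding loci ran from -0.43 to 0.85, and 1 locus was lower than TTLL7. Since TTLL7 was selected for being high in the nuclear library only, this value restates that choice and adds no support to it. The measured levels of the other 7 members after knockdown differed from the computed ones by -0.09 (TTLL11) to 0.58 (TTLL3 locus), inside that range. In the control the central range was -0.40 to 0.86, and TTLL1 lay below it, at -0.50, with about 23.2 whole-cell fragments. This calculation was added after the values were seen.

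**Figure D4:**
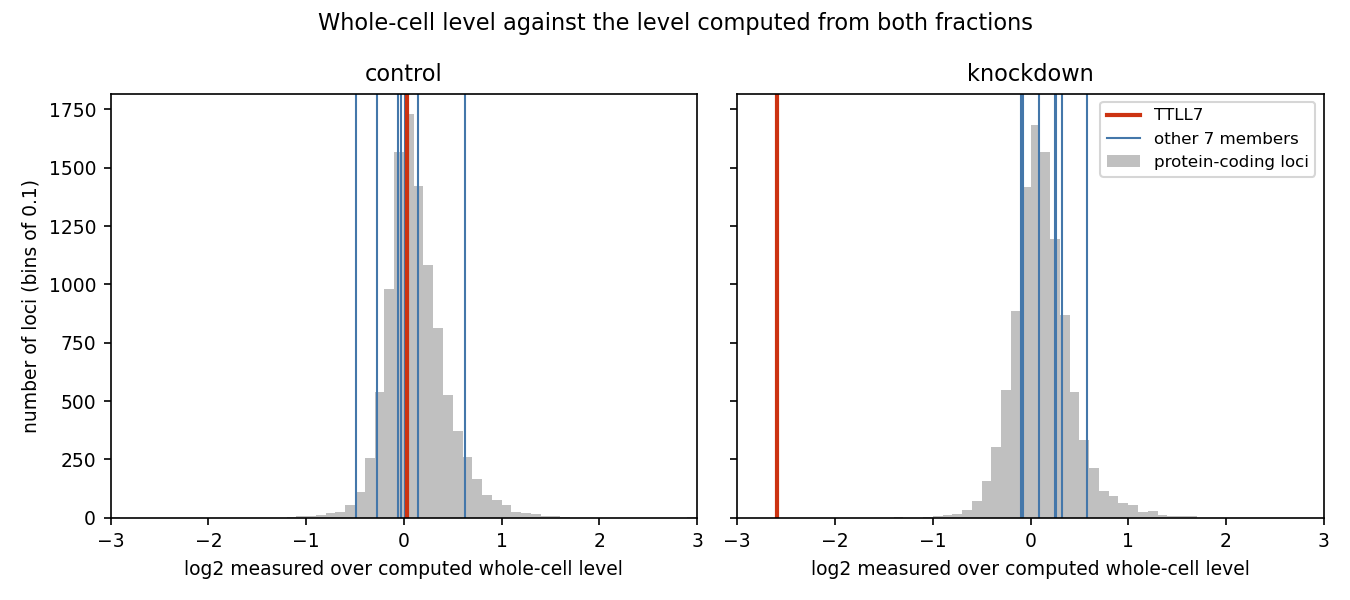
Number of protein-coding loci (grey bars, bins of 0.1) by the log2 difference of the measured whole-cell level and the level computed from nuclear and cytosolic RNA, in control and knockdown. Vertical lines are the members. TTLL7 lies at 0.03 in the control and at -2.59 after knockdown.

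The loci around TTLL7 were all low, at 1.29 FPKM or less in nuclear RNA, and did not share its nuclear difference. No counting interval was computed for them. TTLL7-IT1, a transcript named within its introns (84444800 to 84449983), had 0.168 FPKM in nuclear RNA of the control and 0.0746 FPKM in that of the knockdown. It was listed at 0 in both cytosolic libraries and had 0.299 and 0.117 FPKM in whole-cell RNA. PRKACB, a catalytic subunit of protein kinase A that begins 78.9 kb away, had 0.693 and 0.578 FPKM in nuclear RNA. RP11-486G15.2, 77.2 kb away, had 1.29 and 1.17 FPKM. Of 11 other loci that overlap TTLL7 or lie within 300 kb, 6 were listed at 0 in every library. RP11-486G15.1 was lower in knockdown than in control nuclear RNA, with 0.993 and 0.583 FPKM. In whole-cell RNA it had 2.16 FPKM in the control and 0.204 FPKM after knockdown. The merged SAMD13 locus was the 1 neighbour with a higher knockdown nuclear level, 0.354 and 0.659 FPKM.

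Over the 6 libraries the profile of TTLL7 had no close match. By the Euclidean distance between centred log2 profiles, the nearest of 10288 protein-coding loci was CD69, a lymphocyte activation marker, at 2.18. The profile of TTLL7 itself has a length of 3.32 on that scale. In nuclear RNA CD69 had 23.2 FPKM in the control and 42.8 FPKM after knockdown. CPS1 (2.21), ABHD15 (2.27), TXNIP (2.30) and SIL1 (2.35) came next, with nuclear differences of 1.25, 0.65, 1.57 and 0.69. All 5 had smaller nuclear differences than TTLL7. The distances include the level for which TTLL7 was selected, so they restate that choice and add no support to it.

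Further family genes were low or listed at 0, apart from a merged locus. TTLL2, TTLL6, TTLL8 and TTLL9 were listed at 0 in all 6 libraries, and TTLL10 had 0.0248 FPKM in control nuclear RNA and 0 elsewhere. TTLL10-AS1 had 0.0152 FPKM in the same library. TTLL11-IT1, an intronic transcript, had 0.192 FPKM in knockdown whole-cell RNA and 0 elsewhere. TTLL13 was merged with NGRN, a locus with 28.9 and 28.3 FPKM in nuclear RNA.

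The enzymes that work with or against the glutamylases were described from lists chosen with earlier results of these data known. Over the 40 loci of all 10 lists that averaged 1 FPKM or more, 0 were at least 2-fold higher or lower in nuclear and in cytosolic RNA, and 1 was higher in whole-cell RNA. Their median differences were 0.02 in whole-cell RNA, 0.00 in nuclear RNA and 0.02 in cytosolic RNA, against 0.06, 0.03 and 0.03 over all 12838 loci analysed. Of those loci 1.36% were at least 2-fold higher and 1.29% lower in whole-cell RNA. In nuclear RNA the shares were 1.04% and 1.50%, and in cytosolic RNA 2.62% and 2.63%. Among protein-coding loci they were smaller: 0.603% and 0.467%, 0.321% and 0.603%, and 0.593% and 0.768%, in the same order. The 1 locus was that of KATNAL1, a katanin-like microtubule-severing protein merged here with AL356750.1, with 3.03 and 6.91 FPKM in whole-cell RNA. It had 2.35 and 3.75 FPKM in nuclear RNA and, the other way, 7.86 and 4.35 FPKM in cytosolic RNA. Its shift of 1.49 was the 1 shift of at least 2-fold among these loci. Beside it, 3.28% of all loci and 1.14% of protein-coding loci shifted that far to the nucleus. Between the fractions, 20 of the 40 loci in the control and 21 after knockdown were at least 2-fold lower in nuclear than in cytosolic RNA. Beside them stood 29.1% and 28.4% of all loci, and 32.9% and 32.0% of protein-coding loci. These counts too move with the scaling. They were 10 and 9 when scaled to the protein-coding median (12.5% and 11.4% of all loci), 7 and 6 with quantile normalization (13.4% and 11.5%) and 2 and 3 with equal totals (2.41% and 1.96%). The shares of protein-coding loci were 13.9% and 12.7%, 13.5% and 11.5%, and 2.27% and 1.89%, in the same order.

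Of the subunits of the TTLL1 complex, TPGS1 and TPGS2 were present, while LRRC49 was listed at 0 in all 6 libraries. TPGS2 had 35.3 and 33.4 FPKM in whole-cell and 28.8 and 26.0 FPKM in nuclear RNA, and TPGS1 4.45 and 6.48, and 5.06 and 5.70 FPKM. CCSAP, which binds polyglutamylated tubulin and was listed with them, had 6.91 and 3.97 FPKM in nuclear RNA. Of the deglutamylases, which remove what TTLL7 and its relatives add, 2 of 6 passed the minimum. AGBL5 had 6.45 and 6.91 FPKM and AGTPBP1 2.86 and 3.82 FPKM in nuclear RNA. Of the tubulin carboxypeptidase genes, whose product TTL reverses, the VASH1 locus had 2.32 and 1.83 FPKM, KIAA0895L 7.03 and 8.17 FPKM and CCDC23, which encodes the vasohibin partner SVBP, 7.45 and 6.22 FPKM in nuclear RNA. None of the genes named here was at least 2-fold apart between conditions in any preparation.

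The tubulins, the substrates of the family, had similar levels in both conditions. TUBA1B, the most abundant alpha tubulin here, had 253 and 242 FPKM in nuclear and 1100 and 1103 FPKM in cytosolic RNA. TUBA1C had nuclear levels of 95.9 and 98.1 FPKM. TUBB, the most abundant beta tubulin here, had 200.3 and 199.5 FPKM in nuclear and 510 and 456 FPKM in cytosolic RNA. Over the 8 beta tubulins analysed the median nuclear difference was 0.00, and over the 5 alpha tubulins -0.01, with 0 of either list at least 2-fold apart. Each list holds 1 merged locus, that of TUBB3 with MC1R and TCF25 among others and that of TUBA8 with PEX26, and the alpha median is the value of the latter. TUBA and TUBB genes are close copies, between which the authors' counting could have divided fragments. The deacetylase HDAC6 had 23.8 and 21.3 FPKM in nuclear RNA.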

How the data were processed

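RNA of K562 cells was extracted with TRIzol from whole cells, nuclei and cytosol, depleted of ribosomal RNA and sequenced, with strand-specific libraries named for total RNA, per the labels' protocols. The authors deposited FPKM values, 1 column per library. No header gives a unit, so it was read from the values and the tools. Per the submitters' processing notes, the tools were Cuffdiff 2.2.1, TopHat2 2.0.13, FastQC and CASAVA. The same notes list mm9 beside hg19 without saying what for. How libraries were scaled, which annotation was used and whether counting used strand was not given in the sources used here. Locus coordinates are those of the deposited table, on hg19. Promoters are RefSeq's on GRCh38.p14.

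Members and gene lists were chosen with earlier results of these data known. Loci took their types and transcript lengths by symbol from GENCODE release 29. A pseudocount of 0.1 and a minimum mean of 1 FPKM were used. Named were all members, loci starting with TTLL, neighbours within 300 kb, the 5 nearest profiles and up to 3 genes per list by mean level, or at least 2-fold apart. Not every gene the rule allows is printed. The value of 1 fragment was the peak of low FPKM times length, less 220 bases, over single-exon loci. Counting intervals treat fragments as independent. The level computed from fractions, the intervals at other lengths, the members' counts under other minimums and the shares of loci under other scalings were added after the values were seen. Python 3.11.15 was used with scipy 1.17.1, pandas 2.3.3, numpy 2.4.6 and, for plots, matplotlib 3.10.9. The steps were tested on simulated data made of whole fragments.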

Additional observations from a re-analysis of the deposited data

How the results depend on the processing

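The nuclear difference of TTLL7 stayed above 2-fold and in the same direction under every alternative: 2.93 with a pseudocount of 1, 3.77 with quantile normalization, and within its counting interval with a pseudocount of 0.01 and both other scalings. Its shift was 3.37 with quantile normalization and ranged from 2.52 upward. Its nuclear-to-cytosolic difference in the control was 1.02 when scaled to the protein-coding median, 1.69 when totals without small and mitochondrial RNAs were made equal and 0.058 with quantile normalization. After knockdown it was 3.80 and 4.46 under the first 2 and 2.86 with a pseudocount of 1. Equal totals moved the protein-coding median from -0.61 to 0.62 in the control. They took TTLL12 from -1.05 to 0.20 in the control and from -1.08 to 0.12 after knockdown. In the control TTLL1 (to 0.47), TTLL4 (to 0.77) and the TTLL5 locus (to 1.11) also went from below to above 0. After knockdown TTLL11 (to 0.20), the TTLL5 locus (to 0.66), the TTLL3 locus (to 1.14) and TTLL4 (to 1.17) did so. Counts of members at least 2-fold apart between conditions, and in the shift, were the same under both pseudocounts and the 3 scalings. In alternatives added after the values were seen, they also held with no filter. The same was true with the minimum taken over the 5 libraries without the knockdown nuclear one, and with a minimum of 5 FPKM. TTLL7 passes the latter only through the knockdown nuclear library, with a mean of 5.12 FPKM and 1.81 FPKM without it. That setting therefore adds no support. The 2-fold call of KATNAL1 in whole-cell RNA was lost with a pseudocount of 1 and, as its mean is 4.71 FPKM, with a minimum of 5 FPKM. The share of protein-coding loci at least 2-fold higher in nuclear RNA was 1.16% with no filter and 0.15% at a minimum of 5 FPKM. Depth limits TTLL1, TTLL11 and, outside the knockdown nuclear library, TTLL7, with about 67.4 fragments in control cytosolic RNA. No analysis paired by preparation was run, and the labels give no replicate numbers to pair by.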

Other observations

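Differences that reached 2-fold in nuclear RNA only were not confined to TTLL7. Of 33 protein-coding loci at least 2-fold higher in knockdown nuclear RNA, 21 were less than 2-fold apart in whole-cell and cytosolic RNA. At least 2-fold higher in all 3 preparations were 4. In whole-cell RNA 0.603% of protein-coding loci were at least 2-fold higher and 0.467% lower, and in cytosolic RNA 0.593% and 0.768%. Most loci thus fall under 2-fold there, and nothing is read from the 21. The loci next to TTLL7 in that order were chosen after their values were seen. The 1 locus above it, AC010522.1, was at 0 in nuclear RNA of the control and at 1.49 FPKM after knockdown, so no fold is given. Next below came PKHD1L1, with 0.0438 and 0.435 FPKM, CDKL1, a cyclin-dependent kinase-like gene, with 1.99 and 7.30 FPKM, and PCLO, a presynaptic scaffold gene, with 0.574 and 2.19 FPKM. Unlike TTLL7, these 3 were at least 2-fold higher in whole-cell RNA too: PKHD1L1 had 0.375 and 1.004 FPKM there, CDKL1 had 2.30 and 25.1 FPKM and PCLO had 0.619 and 2.31 FPKM.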
